A study of Rattus norvegicus with 8 samples.

Results

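The core circadian clock loop is described here in the kidney that remained after the other kidney had been removed. Its 10 genes are Arntl (also named Bmal1), Clock, Npas2, Per1, Per2, Per3, Cry1, Cry2, Nr1d1 and Nr1d2, and they were taken by gene symbol, whatever their values. The array carried 15 probes for them among 41012 gene probes, and every one of the 10 genes was among the 19865 genes tested. The rats were male F344/NSlc, an inbred strain, aged 10 weeks, with 4 nephrectomized and 4 sham-operated rats, and each right kidney was measured on its own array. Sampling followed the operation by 2 days according to the series text, whereas the sample labels give 2 days for nephrectomized and 1 day for sham rats. The labels give no clock hour of sampling for any rat, so that a difference in hour and a difference in operation cannot be told apart in any value below. If the sample labels hold, the same is true of the days since the operation.

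The clock loop is a transcriptional feedback circuit that runs in nearly all cells, renal tubule cells included. CLOCK, or its paralog NPAS2, pairs with ARNTL and binds E-box motifs, which switches on the Per, Cry and Nr1d genes. PER and CRY proteins then return to the nucleus and repress that pair, and NR1D1 and NR1D2 (REV-ERB alpha and beta) repress Arntl through a motif named RORE. In the kidney the loop is known for daily rhythms of tubular sodium transport and of glomerular filtration, and Per1 is also switched on directly by glucocorticoids.

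Short stretches of promoter show the motifs through which this loop is wired, with the motif letters in capitals. They come from RefSeq (build GRCr8), and the 250 bases before each listed transcription start were searched on both strands for CACGTG (E-box), CACGTT (a variant called E′-box), TTATGTAA or TTATGCAA (D-box), TAGGTCA or TGGGTCA (RORE), TGACGTCA (cyclic AMP response element, CRE), its half-site TGACG, and the palindromic glucocorticoid response element. The table listed 11 such promoters for 9 of the 10 genes, Cry1 being the gene without one. The stretches are written 5′ to 3′ along the gene, 20 bases to either side of the outermost motif or up to the start.
Arntl, chr1:176766292-176766327, plus strand, RORE: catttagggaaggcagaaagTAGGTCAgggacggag
Per2, chr9:99497030-99497205, minus strand, D-box and E′-box: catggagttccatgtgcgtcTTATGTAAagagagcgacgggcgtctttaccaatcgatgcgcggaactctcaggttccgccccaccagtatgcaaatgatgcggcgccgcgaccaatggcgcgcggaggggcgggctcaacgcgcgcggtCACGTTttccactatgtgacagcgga
Nr1d1, chr10:84229620-84229665, minus strand, E-box: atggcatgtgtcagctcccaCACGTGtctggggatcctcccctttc
Nr1d1, chr10:84231961-84232006, minus strand, E′-box on the opposite strand: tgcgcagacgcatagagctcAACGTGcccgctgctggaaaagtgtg
Cry2, chr3:98860624-98860669, minus strand, E′-box on the opposite strand: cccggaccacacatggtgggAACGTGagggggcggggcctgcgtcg
Of all 33469 promoters in the table, 5.59% held the E-box, 4.07% the E′-box, 1.6% the D-box and 5.62% the RORE. Among the clock promoters 1, 3, 1 and 1 did. None of the 11 held the full CRE (1.59% of all) or the glucocorticoid element (0.373% of all), and the half-site, found in 18.2% of all promoters, was in that of Per3 alone. The Per1 and Nr1d2 windows, both from genes that fell after nephrectomy, held none of the motifs, which says only that those letters are not in these 250 bases.

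Every level below is on a log2 scale, as intensity relative to the 75th percentile of gene probes on that array, so that 0 is a probe at the percentile. A difference is nephrectomized minus sham. Of the 10 genes, 2 were lower after nephrectomy (Per1 and Nr1d2) and 1 was higher (Cry1) with the adjusted p set at 0.05 (limma, p-values adjusted by Benjamini-Hochberg over the whole table). Over all genes tested, 1.02% were called lower and 2.57% higher, 3.59% in all. The difference was positive for the 3 activators (Arntl, Clock, Npas2) and both Cry genes, and negative for the 3 Per genes and both Nr1d genes, which makes 5 negative of 10, against 50.1% of all genes. At an unadjusted p under 0.05 there were 7 of the 10 genes, against 17.7% of all genes. The median absolute log2 difference was 0.34 for the 10 genes and 0.11 for all genes. Both groups hold 4 rats, and nothing in the labels says more of how the rats were housed or sampled, so the p-values measure the spread between these rats.

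**Figure D1:**
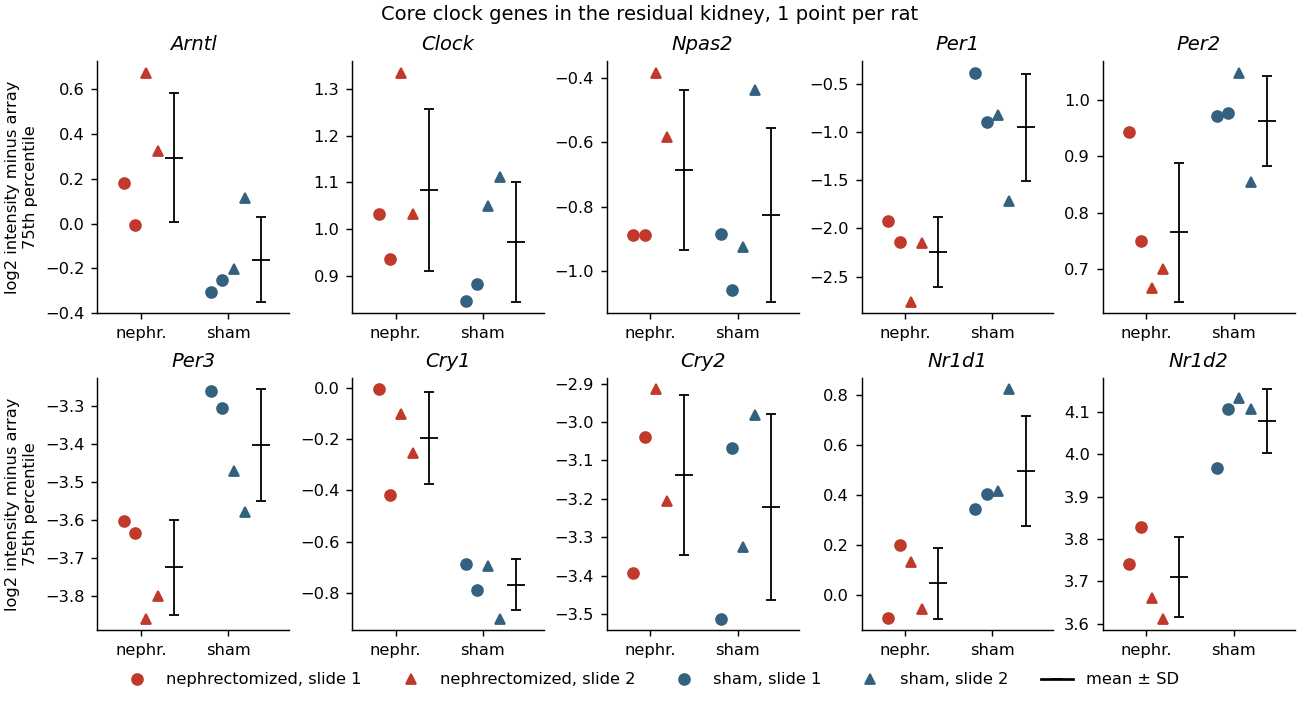
Level of each core clock gene (brightest probe, log2 intensity relative to the 75th percentile of its array, each panel with its own axis) in every rat, nephrectomized left and sham right, circles for slide 1 and triangles for slide 2, bars for mean ± SD (n = 4). The groups do not overlap for Per1, Per3, Cry1, Nr1d1 and Nr1d2, and they overlap for the other genes.

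The quality of the arrays bears on all of these genes alike. The 8 arrays lay on 2 slides, each with 2 nephrectomized and 2 sham rats, between 54.8% (sham rat 1) and 65.5% of gene probes were well above background, and gene spots showed no saturation. Across probes, the correlation between any pair of arrays lay between 0.983 and 0.996. The groups parted along principal component 1 (32.5% of variance), while sham rat 1 stood away from the rest along component 2 (21.6%). Kidney markers were present: all 5 proximal tubule, 2 thick ascending limb, 4 distal and 3 podocyte markers were well above background on all 8 arrays. Of other tissues, 3 of 4 adrenal markers measured (Cyp11b1, Cyp11b2, Cyp21a1), Ttr of the liver and Lep of fat were well above background on no array. Adipoq and Cfd of fat and the leukocyte markers Ptprc and Cd68 were well above background on all 8 arrays, and none of these was called. The fourth adrenal marker, Cyp17a1, was so in 4 of 4 nephrectomized and 3 of 4 sham rats and was called higher (log2 difference 0.54, adjusted p = 0.0222, limma). The summed level of the 3 erythroid markers was 13.4 to 14.8 in nephrectomized and 13.1 to 29.1 in sham rats, on a linear scale where 1 is the 75th percentile, with sham rat 4 the highest. The summed level of the 4 adrenal markers, near the floor of the array, was 0.133 to 0.147 in nephrectomized and 0.0967 to 0.123 in sham rats. Most of this sum was Cyp17a1, whose mean log2 level was -3.19 in nephrectomized and -3.74 in sham rats. The other 3 markers had means of -6.60 to -6.43 and -6.72 to -6.12. The sum thus repeats the difference of Cyp17a1 and is not a second result. Its part in the clock values was not tested. In a bulk sample, fewer cells of a type and less RNA per cell cannot be told apart.

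Per1, a repressor of the loop that responds quickly to hormonal and light signals, had the largest difference of the 10 genes. Its level was -1.92, -2.14, -2.76 and -2.15 in nephrectomized rats 1 to 4, against -0.38, -0.89, -0.82 and -1.71 in sham rats 1 to 4. Every nephrectomized rat lay below every sham rat, with a gap of 0.20 between nephrectomized rat 1 and sham rat 4. Sham rat 4 was much closer to the nephrectomized rats than to the other sham rats. The mean was -2.24 ± 0.36 after nephrectomy and -0.95 ± 0.55 after sham operation (SD, n = 4 each). Per1 thus fell by 1.29 log2 units with an SE of 0.28 (adjusted p = 0.0465, limma), to 0.409 of the sham level (95% interval 0.261 to 0.639). The difference was -1.39 on slide 1 and -1.19 on slide 2, each with 2 rats per group. In the scanner's own units the median spot was 113 in nephrectomized and 357 in sham rats, well above background on all 8 arrays. The call lay near the threshold: it was kept without sham rat 4 (adjusted p = 0.0127, log2 difference -1.54) and lost without any other single rat (adjusted p 0.0629 to 0.13). It was also lost with normexp background correction (log2 difference -0.93, adjusted p = 0.0612) and when dim probes were kept in the test (adjusted p = 0.154). With same-numbered rats as a block it was lost as well (adjusted p = 0.0843, limma).

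Per2, the repressor whose loss shortens or stops the clock in mice, differed by less. Its level was 0.94, 0.75, 0.67 and 0.70 in nephrectomized rats and 0.97, 0.98, 1.05 and 0.85 in sham rats. The groups overlapped, since nephrectomized rat 1 lay above sham rat 4. The log2 difference was -0.20 (SE 0.08, 95% interval -0.38 to -0.02, adjusted p = 0.234, limma), and it did not pass.

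Per3, the least essential of the Per genes in mice, was measured by a probe of low signal. Its level was -3.60, -3.64, -3.86 and -3.80 in nephrectomized rats and -3.26, -3.31, -3.47 and -3.58 in sham rats. The groups did not overlap, but they were 0.025 apart at the nearest rats. The log2 difference was -0.32 (SE 0.09, adjusted p = 0.116, limma), and the values on slide 1 and slide 2 were -0.34 and -0.31. With slide as a block the gene passed (adjusted p = 0.0219), and with normexp the difference shrank to -0.10. A second probe of Per3 was well above background on none of the 8 arrays and gives no level.

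Per1 lay further below its sham mean than Per2 or Per3 did. Set against Per2 within the same array, and taking the sham mean as 0, Per1 was lower by 0.94 to 1.51 in nephrectomized rats (values of -0.94, -0.98, -1.51 and -0.94 for rats 1 to 4), against 0.56, 0.05, 0.05 and -0.65 in sham rats. Set against Per3 it was -0.76, -0.96, -1.35 and -0.80, against 0.43, -0.04, 0.20 and -0.59. In both contrasts the groups did not overlap. These contrasts between 2 genes were chosen after the values were seen and are given without a test.

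Cry1, the repressor that holds ARNTL and CLOCK inactive late in the cycle, was the member that rose. Its level was -0.00, -0.42, -0.10 and -0.25 in nephrectomized rats and -0.69, -0.79, -0.70 and -0.90 in sham rats. The groups lay 0.27 apart at their nearest rats. The mean was -0.19 ± 0.18 after nephrectomy and -0.77 ± 0.10 after sham operation (SD, n = 4 each), a rise of 1.49-fold (95% interval 1.27 to 1.74; log2 difference 0.57, SE 0.10, adjusted p = 0.0188, limma). The difference was 0.53 on slide 1 and 0.62 on slide 2. It kept its call under normexp (adjusted p = 0.0208), and the call was gone when dim probes were kept (0.0844) or when nephrectomized rat 4 or any of sham rats 2, 3 and 4 was left out (0.0506 to 0.06).

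Cry2, its paralog, showed no detectable difference at this precision. Its level was -3.39, -3.04, -2.91 and -3.20 in nephrectomized rats and -3.51, -3.07, -3.33 and -2.98 in sham rats, so that the groups were intermixed. The log2 difference was 0.08 with a 95% interval of -0.24 to 0.41 (adjusted p = 0.819, limma), which leaves room for a change of up to 1.33-fold upward or to 0.846 of the sham level. Within the array and relative to the sham mean, Cry1 minus Cry2 was 0.94, 0.17, 0.36 and 0.50 in nephrectomized rats and 0.37, -0.18, 0.18 and -0.37 in sham rats, and these groups overlapped.

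Nr1d2, which encodes REV-ERB beta, a repressor of Arntl, fell. Its brighter probe read 3.74, 3.83, 3.66 and 3.61 in nephrectomized rats and 3.97, 4.11, 4.13 and 4.11 in sham rats. This was the tightest of the 10 genes, with a pooled within-group SD of 0.09 against 0.47 for Per1 and a median of 0.14 over all genes. Nr1d2 fell by 0.37 log2 units with an SE of 0.07 (adjusted p = 0.0275, limma), to 0.775 of the sham level (95% interval 0.694 to 0.866). The difference was -0.25 on slide 1 and -0.48 on slide 2. A second probe read -1.56, -1.23, -1.73 and -1.30 in nephrectomized rats and -0.97, -0.87, -1.09 and -1.12 in sham rats, again without overlap. Its log2 difference was -0.44, and it did not pass when every probe was tested on its own (adjusted p = 0.0978, limma over 23982 probes, of which 3.24% were called). The call of the brighter probe was kept without nephrectomized rat 2 (adjusted p = 0.0328) or sham rat 1 (0.0248), and lost without any other rat (0.0547 to 0.098) and without the filter on dim probes (0.129).

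Nr1d1, which encodes REV-ERB alpha, the other repressor of Arntl, was lower in every nephrectomized rat but did not pass. Its level was -0.09, 0.20, 0.13 and -0.05 in nephrectomized rats and 0.34, 0.41, 0.42 and 0.82 in sham rats. Sham rat 4 stood above the other sham rats, and the groups did not overlap. The log2 difference was -0.45 (SE 0.12, 95% interval -0.72 to -0.18, adjusted p = 0.0881, limma), with -0.32 on slide 1 and -0.58 on slide 2. It passed with normexp (adjusted p = 0.0486) and with array weights (0.0355). Nr1d1 minus Nr1d2 within the array, relative to the sham mean, was -0.25 to 0.05 in nephrectomized and -0.14 to 0.30 in sham rats, and these groups overlapped.

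**Figure D2:**
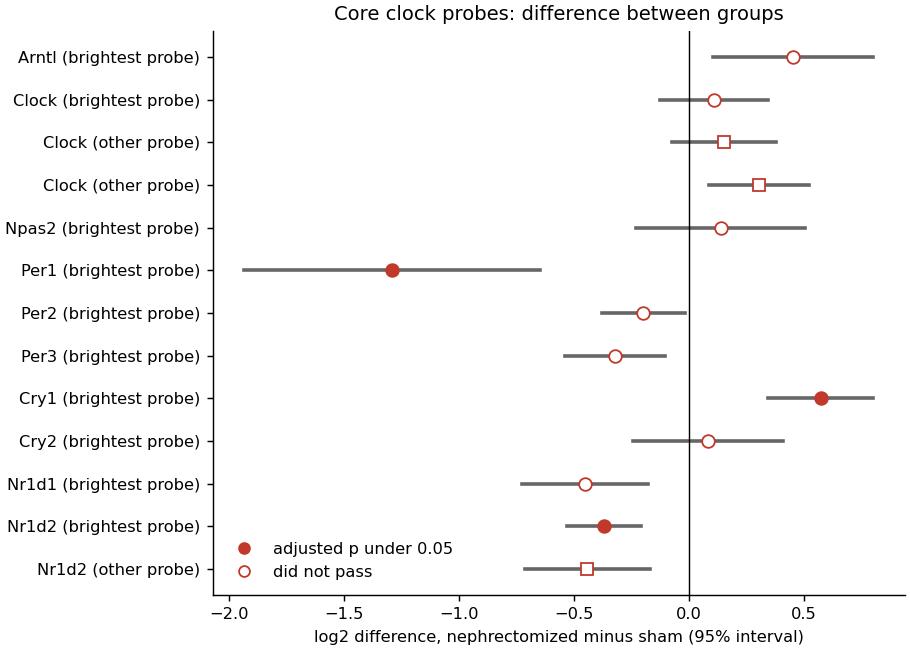
Log2 difference (nephrectomized minus sham) with its 95% interval for the 13 clock probes that passed the filter on dim probes, circles for a gene's brightest probe and squares for its other probes, filled where the adjusted p is under 0.05. Per1 (-1.29), Cry1 (0.57) and Nr1d2 (-0.37) are filled, and the probes of each gene lie on the same side of 0.

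Arntl, the partner shared by CLOCK and NPAS2, had the largest positive difference among the activators. Its level was 0.18, -0.00, 0.67 and 0.32 in nephrectomized rats and -0.30, -0.25, -0.20 and 0.12 in sham rats. The groups overlapped by 1 rat, sham rat 4, which lay above nephrectomized rat 2. The log2 difference was 0.45 (SE 0.15, 95% interval 0.11 to 0.80), or 1.37-fold, and it did not pass (adjusted p = 0.161, limma). It was 0.37 on slide 1 and 0.54 on slide 2.

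Clock was measured by 3 probes that passed the filter. The brightest read 1.03, 0.94, 1.33 and 1.03 in nephrectomized rats and 0.85, 0.88, 1.05 and 1.11 in sham rats, a log2 difference of 0.11 (95% interval -0.12 to 0.35, adjusted p = 0.63, limma). The next read -1.50, -1.54, -1.23 and -1.56, against -1.77, -1.67, -1.50 and -1.50, a difference of 0.16. The dimmest read -2.90, -2.97, -2.92 and -2.65, against -3.03, -3.08, -3.28 and -3.28. Its log2 difference was 0.31 and its groups did not overlap (adjusted p = 0.14 with every probe on its own, limma). The 3 probes shared a sign, and none passed.

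Npas2, the paralog that can replace CLOCK, read -0.89, -0.89, -0.38 and -0.58 in nephrectomized rats and -0.88, -1.06, -0.92 and -0.44 in sham rats. The groups were intermixed, with a log2 difference of 0.14 (95% interval -0.23 to 0.51, adjusted p = 0.713, limma). Its second probe was well above background in 2 of 4 nephrectomized and 2 of 4 sham rats and was left out of the test.

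Counted over the loop, the groups did not overlap for 5 of the 10 genes, 4 lower (Per1, Per3, Nr1d1, Nr1d2) and 1 higher (Cry1) after nephrectomy. Over all genes this share was 12.7%, with 5.09% lower and 7.59% higher. The sign of the difference was the same on both slides for 10 of 10 genes, against 68.4% of all genes.

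The profile of each rat across the loop was read relative to the sham mean of each gene. Nephrectomized rat 3 held both the lowest Per1, at -1.81, and the highest Arntl, at 0.84, and it also had the highest Clock (0.36) and Npas2 (0.44) of all 8 rats. Nephrectomized rat 2 had the smallest Arntl difference of its group, at 0.16, and the smallest Cry1 difference, at 0.35. Among sham rats, rat 4 had the lowest Per1 (-0.76) but the highest Nr1d1 (0.33), Arntl (0.28) and Npas2 (0.39). Sham rat 4 thus lay on the side of the nephrectomized rats in Per1 and Arntl and on the opposite side in Nr1d1. Sham rat 4 was also the rat with the highest summed level of erythroid markers, whose part in these values was not tested.

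**Figure D3:**
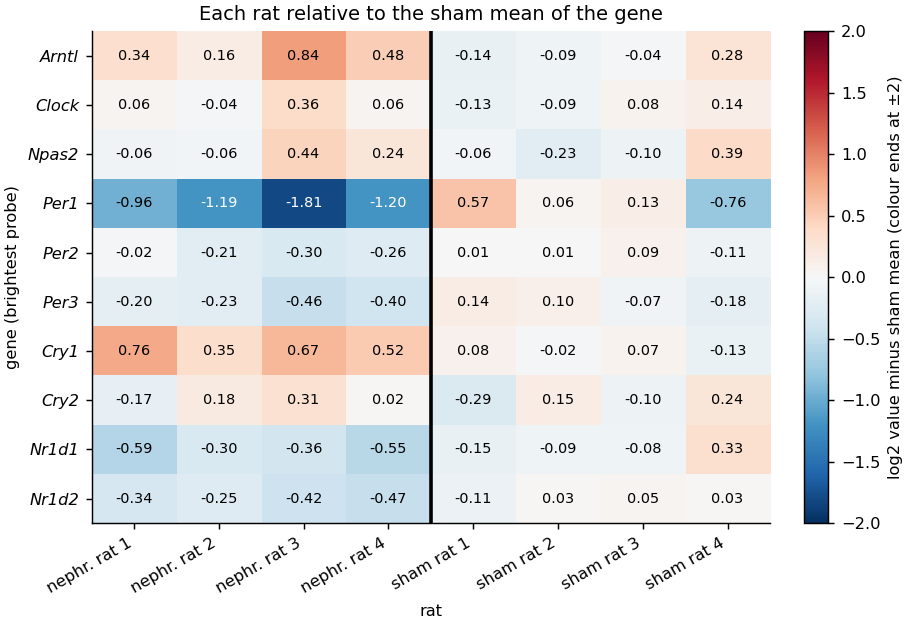
Each rat's log2 value minus the sham mean of that gene (colour and printed number, rows for the 10 genes, columns for the 4 nephrectomized and then the 4 sham rats). Per1, Per2, Per3, Nr1d1 and Nr1d2 are below 0 and Arntl and Cry1 above 0 in all 4 nephrectomized rats, and sham rat 4 is at -0.76 in Per1 and 0.33 in Nr1d1.

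Arntl was set against its repressor Nr1d1, neither of which passed on its own. Among sham rats 1 to 4 the genes moved in the same direction relative to their sham means. Arntl was at -0.14, -0.09, -0.04 and 0.28, and Nr1d1 at -0.15, -0.09, -0.08 and 0.33. Subtracting one from the other cancels this shared movement. Arntl minus Nr1d1 within the array, relative to the sham mean, was 0.93, 0.45, 1.20 and 1.04 in nephrectomized rats (mean 0.90, SD 0.32), against 0.01, 0.00, 0.04 and -0.05 in sham rats (SD 0.04). The groups did not overlap, and the contrast was chosen after the values were seen and has no test. Cry1 minus Per1 was 1.73, 1.54, 2.47 and 1.72 in nephrectomized rats and -0.49, -0.08, -0.06 and 0.63 in sham rats. Cry1 rose and Per1 fell, each without overlap, so their difference could not overlap and adds no further result. Arntl minus Clock was 0.28, 0.19, 0.47 and 0.42 in nephrectomized rats and -0.02, -0.00, -0.12 and 0.14 in sham rats, also without overlap. These contrasts too were chosen after the values were seen and have no test.

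Factors that carry the clock's output were measured for 4 of 6 listed. Of these 1 was lower and none higher, against 1.02% and 2.57% of all genes. An unadjusted p under 0.05 (limma) was found for 3 of the 4, against 17.7% of all genes. Tef, which binds the D-box, fell by 0.62 log2 units with an SE of 0.10 (adjusted p = 0.0159, limma). Tef read 0.47, 0.69, 0.54 and 0.38 in nephrectomized rats and 0.89, 1.30, 1.15 and 1.20 in sham rats. Dbp, of the same family, had a difference of -0.44 and did not pass (adjusted p = 0.0545), and Nfil3, which represses the same motif, had 0.31 (adjusted p = 0.16). The median over the 4 was -0.24, against -0.00 over all genes.

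Regulators of the loop, such as its kinases, were mostly within the spread. Of 8 measured, 1 was higher and none lower, against 2.57% and 1.02% of all genes. An unadjusted p under 0.05 (limma) was found for 3 of the 8, against 17.7% of all genes. Timeless, named after a clock gene of Drosophila and in mammals also a replication fork protein, rose 2.25-fold (log2 difference 1.17, SE 0.12, adjusted p = 0.00166, limma). Its level was -1.36, -1.25, -0.93 and -1.04 in nephrectomized rats and -2.18, -2.54, -2.28 and -2.24 in sham rats. Its partner Tipin had 0.26 (adjusted p = 0.0967). Csnk1d, a kinase of PER proteins, differed by less than its standard error (-0.05, SE 0.09). The median over the 8 was 0.11.

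Genes of kidney function and the cell cycle under clock control did not pass. Of 9 measured, none was called (limma), against 3.59% of all genes, and 1 had an unadjusted p under 0.05, against 17.7%. The 1 gene was Usp2, a ubiquitin protease, with a log2 difference of -0.78 (SE 0.22, adjusted p = 0.102). Usp2 read 2.01, 1.62, 1.08 and 1.30 in nephrectomized rats and 2.54, 2.35, 2.39 and 1.84 in sham rats. The sodium transport genes Scnn1a and Slc12a3 and the water channel Aqp2 had differences of 0.05, -0.03 and -0.01, and the mitotic inhibitor Wee1 had 0.01. Slc9a3, also a sodium transport gene, had a larger difference of -0.23 (SE 0.10, adjusted p = 0.284, limma). The median over the 9 was -0.03.

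Genes induced by glucocorticoids were listed as well. All 10 measured had negative differences (50.1% of all genes did), with a median of -0.62, though Dusp1 (-0.08) and Pdk4 (-0.04) differed by less than their standard errors. Against 1.02% of all genes, 4 were lower: Klf9, a transcription factor (-0.49), Errfi1, a feedback inhibitor of the EGF receptor (-0.69), Fkbp5, a co-chaperone that tunes the glucocorticoid receptor's sensitivity to hormone (-0.73), and Tsc22d3, an anti-inflammatory mediator (-0.67), with adjusted p between 0.005 and 0.0491 (limma). Fkbp5 read 4.43, 4.36, 3.73 and 4.02 in nephrectomized rats and 4.92, 4.97, 4.92 and 4.67 in sham rats. The lowest rat of each group was the same in Fkbp5 as in Per1, nephrectomized rat 3 and sham rat 4. This did not hold for every called gene of the list. Klf9 was lowest in nephrectomized rat 3 (3.89) and sham rat 1 (4.41). Errfi1 was lowest in nephrectomized rat 1 (5.47) and sham rat 2 (6.35). Of 7 immediate early genes, which respond within minutes to many stimuli, none was called and 2 had an unadjusted p under 0.05 (limma). Over all genes these shares were 3.59% and 17.7%. The median of the 7 was 0.02, and the smallest p was that of Atf3 (log2 difference 0.37, adjusted p = 0.12).

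**Figure D4:**
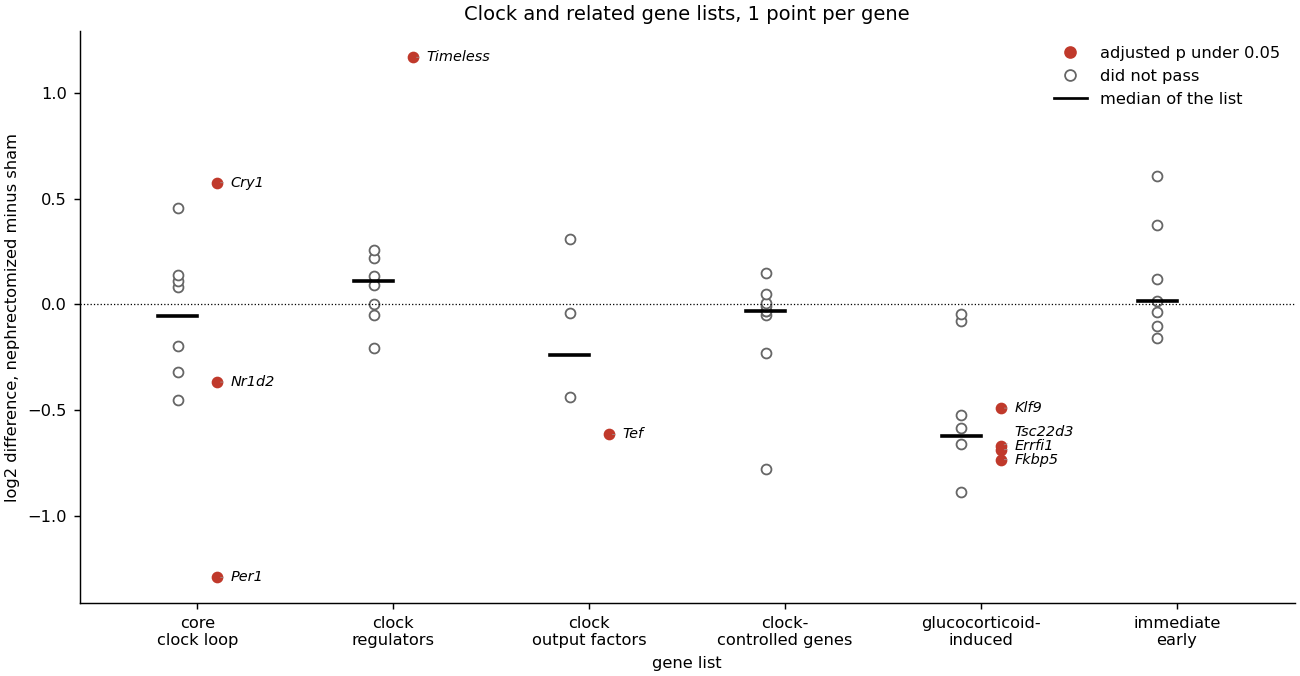
Log2 difference (nephrectomized minus sham) of every measured gene in the core clock loop and in 5 related lists, 1 point per gene, filled and named where the adjusted p is under 0.05, with the list's median as a line. The called genes are Per1, Nr1d2 and Cry1 in the loop, Timeless among the regulators, Tef among the output factors, and 4 glucocorticoid-induced genes, and of these all but Cry1 and Timeless were lower.

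Genes with the most similar profiles were found for the 3 called members among 9302 named genes that every one of the 8 arrays measured well above background. The measure was the root mean square difference over the 8 arrays between values centred on each gene's own mean. Such values include the difference between the groups. A gene with a like difference is therefore close to a called member by construction. Per1, whose own root mean square about its mean was 0.76, was closest to the kinase Map3k6 (0.25), the connective tissue growth factor Ccn2 (0.27) and the semaphorin Sema3a (0.32). Cry1 (0.31 about its mean) was closest to the membrane protein Tmem97 (0.07), to Fasn, which makes fatty acids (0.10), and to Srd5a1, a steroid reductase (0.11). Nr1d2 (0.20 about its mean) was closest to the mitochondrial kinase Pink1, the sialyltransferase St3gal2 and the retinaldehyde dehydrogenase Aldh1a1 (each 0.06). Of these similar genes, Sema3a (adjusted p = 0.184) and St3gal2 (adjusted p = 0.0816) were not called (limma), and the others were.

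Of 14 other settings and slide subsets, 7 changed the estimate of a gene (8 for Clock and Nr1d2), and each of the 10 genes kept its sign in them, while the rest changed the error or the adjustment alone. When 1 rat at a time was left out, all kept it too, with the exception of Cry2, which ranged from -0.01 to 0.17. Per1 ranged from -1.54 to -1.10 over those 8 fits and was called in 1, Cry1 from 0.51 to 0.65 and called in 4, and Nr1d2 from -0.41 to -0.34 and called in 2.

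**Figure D5:**
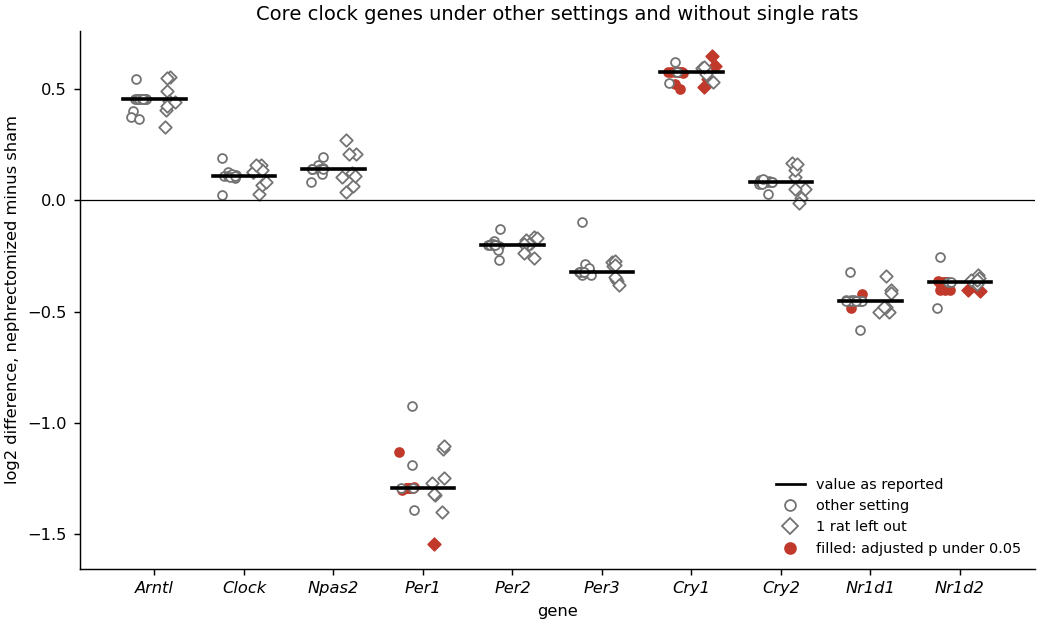
Log2 difference (nephrectomized minus sham) of each core clock gene as reported (line), under 14 other settings or slide subsets (circles) and with 1 rat left out (diamonds), filled where the adjusted p is under 0.05. The points of Per1, Per2, Per3, Nr1d1 and Nr1d2 stay below 0 and those of Arntl, Clock, Npas2 and Cry1 above 0, and those of Cry2 reach -0.01.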

How the data were processed

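Total RNA of 8 right kidneys (RNeasy columns, Cy3 label, per the labels' protocols) was hybridised to a 1-colour Agilent rat array (design 014879). The authors extracted each array with Feature Extraction 10.5.1.1, per the file headers. The deposited intensity is background-subtracted within the array and not normalized between arrays, per the file headers. The deposited flags (other values, 0 or 1) mark spots well above background and outlier spots. A second deposited file gives log2 values by the authors. It matched the scaled values used here after each probe was centred at its median (r = 1.00 across probes, column medians -0.0169 to 0.0152), and served as an alternative.

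Here the log2 processed intensity of a probe's spots, outlier spots left out, was averaged, and each array's 75th percentile was subtracted. A probe entered the test (23982 of 41012 did) where every array of 1 group or of both had it well above background, and the brightest probe stood for a gene. Names came from RefSeq accessions matched to a table of the GRCr8 assembly, which named 18713 probes. The array's own annotation build is rn4, per the file headers. The comparison used limma 3.58.1 (R 4.3.3; eBayes after lmFit, two-sided) with Benjamini-Hochberg adjustment over 19865 genes and a threshold of 0.05. The tests were checked on simulated data. No 2 arrays held the same values (SD of log2 differences 0.531 to 0.778), and the number of arrays limits precision.

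The members and lists were chosen with earlier results of these data known. Named are all 10 members, the called genes of each list or else its gene of smallest p, and the 3 genes most like each called member. The other genes with values (Dbp, Nfil3, Tipin, Csnk1d, Scnn1a, Slc12a3, Slc9a3, Aqp2, Wee1, Dusp1, Pdk4) were chosen after their values were seen.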

Additional observations from a re-analysis of the deposited data

Results flagged for a closer look

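In 3 of the 30 sets of 4 rats examined (15 probes, 2 groups), 1 rat stood apart from the other 3, meaning that its gap to the nearest rat took up more of the group's range than Dixon's 95% critical value for 4 samples. Chance gives about 1 in 20. For Nr1d1, sham rat 4 (0.82) lay above the other sham rats (0.34 to 0.42), with a gap of 0.85 of the range. For the brighter probe of Nr1d2, sham rat 1 (3.97) lay below the others (4.11 to 4.13), with a gap of 0.842 of the range. For the second probe of Clock, nephrectomized rat 3 (-1.23) lay above the others (-1.56 to -1.50), with a gap of 0.838 of the range. Without sham rat 4 the log2 difference of Nr1d1 was -0.34, and without sham rat 1 that of Nr1d2 was -0.40.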

How the results depend on the processing

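Without the filter on dim probes no core clock gene was called lower or higher (0 and 0; 282 genes in all, 6 members at an unadjusted p under 0.05), where 35237 genes were tested. At an adjusted p of 0.01 the counts were 0 and 0 with 260 genes. Within slide 1 they were 0 and 0 with 0 genes (limma, 1632 before adjustment). On slide 2 alone they were 0 and 0 with 141 genes (2464 before adjustment), each with 2 rats per group. Array weights called 3 lower and 1 higher, with 2157 genes in all, and the slide as a block 3 and 1 with 802. With the replicate block the counts were 0 lower and 1 higher with 296 genes. Whether same-numbered rats were paired is not in the labels. Deviations of same-numbered rats from their group means correlated across genes at 0.103, 0.0112, 0.101 and -0.0176. The highest of the 16 pairs was nephrectomized rat 3 with sham rat 4 (0.267), and the lowest was nephrectomized rat 3 with sham rat 1 (-0.290). Such correlations cannot decide whether the rats were paired, since a shared day or hour could leave little trace across all genes. Leaving out 1 rat at a time gave 0 to 1 lower, 0 to 1 higher, and 341 to 720 genes in all. The other settings gave 2 lower and 1 higher apart from those named here, and 618 to 909 genes in all. No result changed sign with a call. The causes of these changes were not tested, except that fewer rats, or more genes to adjust over, enter by construction. Signal over background limits Per3 and Cry2 most, whose spots read 35.4 to 89.5 intensity units.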

Other observations

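Nephrectomized rat 3 and sham rat 4, the lowest of their groups in Per1, deviated alike from their group means across all genes (r = 0.267, the highest of 16 pairs between the groups). The correlation largest in size was negative, that of nephrectomized rat 3 with sham rat 1 (r = -0.290). A rat's deviations depend on those of the others in its group, so the 16 values are not independent. Nephrectomized rat 3 and sham rat 4 were also the lowest of their groups in Per2 (0.67 and 0.85) and Per3 (-3.86 and -3.58). Nephrectomized rat 3 was the lowest of its group in 6 of the 10 glucocorticoid-induced genes, against 32.8% of all genes, and sham rat 4 was the lowest of its group in 7 of the 10, against 22.5% of all genes. Tsc22d3 read 3.41, 3.28, 2.85 and 3.24 in nephrectomized rats 1 to 4 and 4.13, 3.88, 3.88 and 3.57 in sham rats 1 to 4, an order within each group led from below by the same rats. Usp2 shared it, with 1.08 in nephrectomized rat 3 and 1.84 in sham rat 4 as the lowest of each group. Klf9 and Errfi1, also called lower, did not: their lowest sham rats were rat 1 (4.41) and rat 2 (6.35). In Cry1, sham rat 4 was the lowest sham rat, and nephrectomized rat 2 was the lowest of its group. These counts were made after the values were seen, over genes that are not independent of each other.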
